A study of Canis lupus familiaris with 6 samples.

Results

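The DNA replication machinery examined here is a set of 52 genes chosen by function: the factors that license origins, the replicative helicase and the factors that activate it, the polymerases and primase, the sliding clamp and its loader, the enzymes of the lagging strand, the proteins that protect the fork, the enzymes that supply deoxynucleotides, and CDCA7, a chromatin factor. A member was followed through the probe sets whose only gene symbol in the array annotation is that gene, and the brightest of them, by the mean over all arrays, stood for the gene. Of the 52 members 50 had such a probe set, among 15115 genes in all, and 49 lay above the filter on dim probe sets, among 9145 genes tested. LIG1 and TIPIN had no probe set named here. TIMELESS lay below the filter.

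The samples were 6 primary lines of osteosarcoma, a malignant tumour of bone, from dogs, each read on 1 Affymetrix array. Mice transplanted with UWKOS1, UWKOS3 or UWKOS7 developed tumours (tumorigenic, n = 3), and mice transplanted with UWKOS2, UWKOS6 or UWKOS8 did not (non-tumorigenic, n = 3). All lines were cultured alike in serum-containing medium, with no drug or other agent named as a treatment, and harvested at 70 to 80% confluency, and the RNA came from the cultures, not from the transplants. No genetic change, passage number, donor or normal bone reference is given for the lines, so each group is 3 lines of unstated relation and a p-value measures the spread between them.

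In each cell cycle the origin recognition complex marks origins, CDC6 and CDT1 load the ring-shaped MCM2-7 helicase there in G1, and the kinase CDC7 with DBF4, together with CDC45 and the GINS complex, turns the loaded ring into a moving helicase in S phase. Polymerase alpha with primase lays down primers, polymerases epsilon and delta extend them, and the clamp PCNA, loaded by the RFC complex, keeps the polymerases on the template. Many of these genes are transcribed under E2F factors as cells enter the cycle, and several encode antigens or drug targets used to gauge and block tumour cell division. The arrays read bulk RNA: a larger share of cells in S phase and more RNA per replicating cell cannot be told apart.

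Every one of the 49 members tested had a higher mean in the tumorigenic lines, as did 52.6% of all genes tested. Of these, 24 rose and 0 fell (limma, Benjamini-Hochberg adjusted p under 0.05 over all genes tested), while 7.5% of all genes tested rose and 4.63% fell. Of the 24, CDCA7 reached the filter on dim probe sets only through the tumorigenic lines. The other 25 did not pass. An unadjusted p under 0.05 was found for 42 of the 49 members and, in either direction, for 2928 of the 9145 genes tested. The median difference of the members was 1.25 on the log2 scale, a 2.38-fold higher level, against 0.03 over all genes tested, and the members' differences ran from 0.15 to 2.40. In 40 of the 49 each tumorigenic line lay above each non-tumorigenic line, a pattern found in 21.7% of all genes tested; the opposite pattern, found in 16.6%, occurred in 0 members. Differences below are log2 values, tumorigenic minus non-tumorigenic, and levels are the deposited log2 values of UWKOS1, UWKOS3 and UWKOS7, against those of UWKOS2, UWKOS6 and UWKOS8, in that order.

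**Figure D1:**
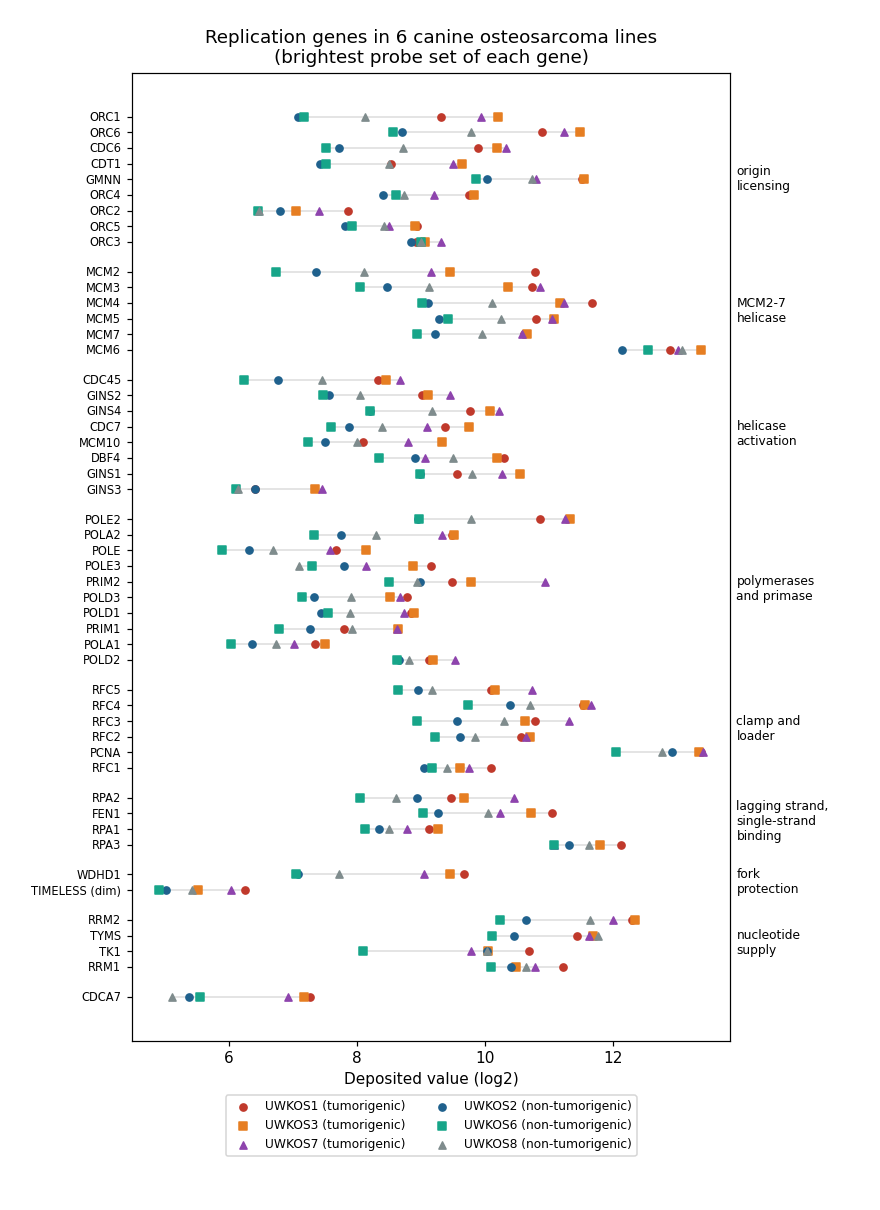
Deposited log2 value (horizontal axis) of each measured member in each line, 1 row per gene, grouped by role; red, orange and purple points are the tumorigenic lines and blue, green and grey points the non-tumorigenic lines. The groups stand apart in 40 of the 49 tested members, and UWKOS8, the grey triangle, is the highest non-tumorigenic line in 40 of the 49; levels of different genes come from different probe sets and are not comparable.

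Among the 9 genes of origin licensing 4 rose, with a median difference of 1.08, and the largest differences were those of ORC1, ORC6 and CDC6. ORC1, the subunit whose abundance cycles with the cell cycle in human cells, had 9.32, 10.21 and 9.95 in the tumorigenic lines, against 7.08, 7.17 and 8.13 in the non-tumorigenic lines. The groups did not overlap, and the lowest tumorigenic line was more than 1 log2 unit, a doubling, above UWKOS8, the highest of the others. ORC1 rose by 2.37 (SE 0.36, limma adjusted p = 0.0191), and all 3 of its probe sets rose, by 2.30 to 2.44. ORC6, the smallest subunit of the complex, had 10.90, 11.49 and 11.24 in the tumorigenic lines and 8.71, 8.56 and 9.78 in the non-tumorigenic lines, again without overlap. It rose by 2.19 (SE 0.36, limma adjusted p = 0.0208). CDC6, the ATPase that joins the complex to recruit the helicase, had 9.90, 10.18 and 10.33 in the tumorigenic lines and 7.72, 7.52 and 8.71 in the non-tumorigenic lines and rose by 2.15 (SE 0.34, limma adjusted p = 0.0197). In ORC1, ORC6 and CDC6 alike UWKOS8 stood above UWKOS2 and UWKOS6 and below every tumorigenic line.

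The core subunits ORC2 to ORC5 differed less. ORC4 had 9.75, 9.84 and 9.20 in the tumorigenic lines and 8.40, 8.62 and 8.73 in the non-tumorigenic lines and rose by 1.01 (SE 0.22, limma adjusted p = 0.0365). Its probe sets disagreed: 1 of similar brightness differed by only 0.18 and did not pass. ORC3 had 8.92, 9.06 and 9.32 in the tumorigenic lines and 8.85, 9.0 and 9.0 in the non-tumorigenic lines, which overlapped. Its difference of 0.15, with a 95% interval of -0.25 to 0.55, did not pass (limma adjusted p = 0.569). The dimmest of its 3 probe sets rose by 1.46. The non-tumorigenic values of that probe set, 6.09, 5.16 and 4.93, lay near or under the filter value of 6.07. ORC2 and ORC5 differed by 0.86 and 0.73 without passing (limma adjusted p = 0.0675 and 0.0844). The median difference was 2.17 for ORC1, ORC6, CDC6 and CDT1 together and 0.79 for ORC2 to ORC5, a contrast described here without a test. This split is not among the role groups, was drawn with earlier results of these data known, and leaves out geminin. CDT1, the partner of CDC6 in loading, differed by 1.42, and geminin (GMNN), the inhibitor that blocks CDT1 after origins have fired, by 1.08. Neither passed (limma adjusted p = 0.0702 and 0.0723), though both were higher in each tumorigenic line than in each other line. For CDT1 the gap between the groups was small: UWKOS1 had 8.54 and UWKOS8 had 8.50.

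The MCM2-7 ring, the motor of the replicative helicase, rose in 5 of its 6 subunits, with a median difference of 1.63 over all 6. MCM2 showed the largest difference of any member, with 10.79, 9.46 and 9.16 in the tumorigenic lines and 7.37, 6.73 and 8.11 in the non-tumorigenic lines. It rose by 2.40 with the widest standard error of the members that rose, 0.52 (limma adjusted p = 0.0371), and UWKOS1 stood well above the other tumorigenic lines. MCM3 had 10.74, 10.36 and 10.86 in the tumorigenic lines and 8.47, 8.05 and 9.12 in the non-tumorigenic lines, a tighter pair of groups, with UWKOS8 again the highest of its group, and rose by 2.11 (SE 0.30, limma adjusted p = 0.0175). MCM4 had 11.67, 11.17 and 11.25 in the tumorigenic lines and 9.11, 9.02 and 10.11 in the non-tumorigenic lines and rose by 1.95 (SE 0.33, limma adjusted p = 0.0226). MCM5 had 10.80, 11.08 and 11.05 in the tumorigenic lines and 9.29, 9.42 and 10.26 in the non-tumorigenic lines, with UWKOS8 the highest of its group, and rose by 1.32 (SE 0.28, limma adjusted p = 0.0362). MCM7 rose by 1.25 (SE 0.27, limma adjusted p = 0.0379). All tested probe sets of MCM3, MCM4, MCM5 and MCM7 rose. The dimmest tested probe sets of MCM3 and of MCM4 had every non-tumorigenic value under the filter value of 6.07. They reached the filter only through the tumorigenic lines. Further MCM3 probe sets, below the filter, differed by 0.35 and 0.17.

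MCM6 was the subunit that did not pass. It had 12.90, 13.38 and 13.03 in the tumorigenic lines and 12.14, 12.55 and 13.09 in the non-tumorigenic lines, and UWKOS8 lay above both UWKOS1 and UWKOS7. Its difference was 0.51 with a 95% interval of -0.17 to 1.18 (limma adjusted p = 0.267), and its other probe set, at 0.79, missed the threshold too. The intervals of MCM3 and MCM4 began at 1.38 and 1.15, close to or above the upper end of the MCM6 interval; whether the subunits differ from each other was not tested.

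The factors that activate the loaded helicase were higher as well, with 4 of 8 past the threshold and a median difference of 1.31. CDC45, which joins MCM2-7 and GINS in the active helicase, had 8.34, 8.45 and 8.68 in the tumorigenic lines and 6.76, 6.23 and 7.45 in the non-tumorigenic lines and rose by 1.67 (SE 0.32, limma adjusted p = 0.0282). Among the subunits of the GINS complex, GINS2 had 9.02, 9.11 and 9.46 in the tumorigenic lines and 7.57, 7.47 and 8.04 in the non-tumorigenic lines and rose by 1.50 (SE 0.22, limma adjusted p = 0.0180). GINS4 had 9.77, 10.08 and 10.23 in the tumorigenic lines and 8.21, 8.21 and 9.18 in the non-tumorigenic lines and rose by 1.49 (SE 0.31, limma adjusted p = 0.0327). GINS1 and GINS3 differed by 0.87 and 0.85 without passing (limma adjusted p = 0.136 and 0.112). GINS1 had 9.57, 10.55 and 10.27 in the tumorigenic lines and 8.99, 8.99 and 9.80 in the non-tumorigenic lines, with UWKOS8 above UWKOS1. For GINS1 the choice of probe set decided the call: the brightest did not pass, while the other 2 tested probe sets rose by 1.24 and 1.30.

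CDC7, the catalytic subunit of the kinase that fires origins, had 9.38, 9.75 and 9.09 in the tumorigenic lines and 7.87, 7.60 and 8.39 in the non-tumorigenic lines, without overlap. It rose by 1.45 (SE 0.27, limma adjusted p = 0.0271). DBF4, its regulatory subunit, had 10.30, 10.19 and 9.06 in the tumorigenic lines and 8.91, 8.35 and 9.50 in the non-tumorigenic lines. UWKOS7 lay below UWKOS8 there, and the difference of 0.93 (95% interval -0.10 to 1.96) did not pass (limma adjusted p = 0.193). MCM10, a scaffold needed to start unwinding, differed by 1.17 without passing (limma adjusted p = 0.0811).

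**Figure D2:**
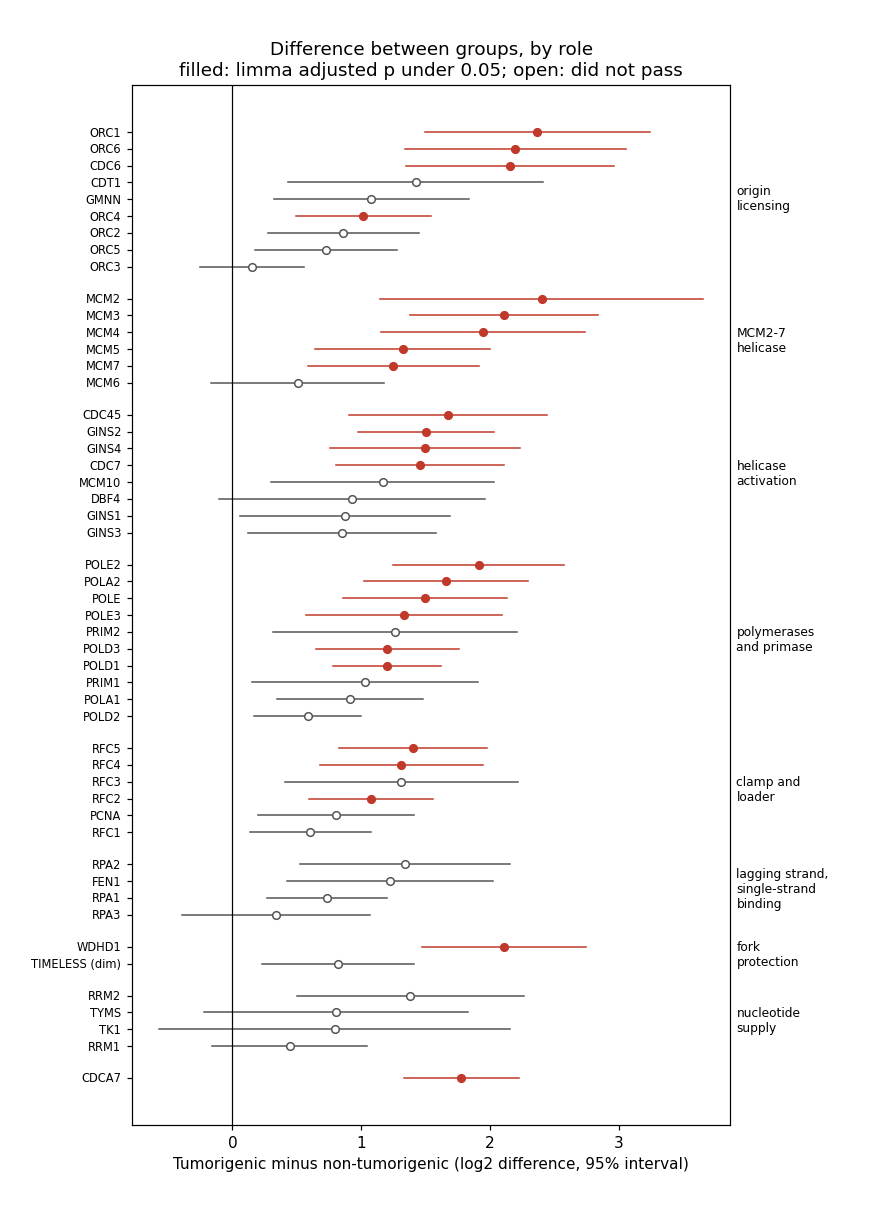
Difference between the groups (tumorigenic minus non-tumorigenic, log2) for each measured member, with its 95% interval from limma; filled red points passed an adjusted p of 0.05 and open points did not. All points lie above 0, and the intervals of ORC3, MCM6, DBF4, RPA3, TYMS, TK1 and RRM1 reach below 0; TIMELESS, below the dim-probe filter, is shown from the fit without that filter.

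Of the 10 genes for DNA polymerases and primase 6 rose, with a median difference of 1.23. POLE2, the second subunit of the leading-strand polymerase epsilon, had 10.86, 11.33 and 11.25 in the tumorigenic lines and 8.96, 8.98 and 9.78 in the non-tumorigenic lines, and rose by 1.91 (SE 0.28, limma adjusted p = 0.0177). POLE, the catalytic subunit, had 7.67, 8.14 and 7.57 in the tumorigenic lines and 6.31, 5.89 and 6.69 in the non-tumorigenic lines and rose by 1.50 (SE 0.26, limma adjusted p = 0.0240). The small histone-fold subunit POLE3 rose by 1.33 (limma adjusted p = 0.0450); it was, with CDCA7, a member in which UWKOS8 was the lowest of all lines. For polymerase delta, which copies the lagging strand, the catalytic subunit POLD1 had 8.84, 8.89 and 8.73 in the tumorigenic lines and 7.43, 7.55 and 7.89 in the non-tumorigenic lines, with little spread in either group. POLD1 rose by 1.20 (SE 0.17, limma adjusted p = 0.0179), although a further probe set, below the filter, differed by -0.32. POLD3 rose by 1.20 (limma adjusted p = 0.0290).

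POLD2, another subunit of polymerase delta, had 4 tested probe sets that disagreed. The brightest had 9.13, 9.19 and 9.54 in the tumorigenic lines and 8.66, 8.62 and 8.82 in the non-tumorigenic lines and did not pass (difference 0.58, limma adjusted p = 0.0745). The dimmest rose by 0.72, and another differed by -0.08. In polymerase alpha, POLA2 had 9.49, 9.52 and 9.33 in the tumorigenic lines and 7.75, 7.32 and 8.30 in the non-tumorigenic lines and rose by 1.65 (SE 0.26, limma adjusted p = 0.0204). Its catalytic partner POLA1 differed by 0.91 without passing (limma adjusted p = 0.0544). The primase subunits did not pass: PRIM1 had 7.80, 8.64 and 8.63 in the tumorigenic lines and 7.27, 6.79 and 7.93 in the non-tumorigenic lines, where UWKOS8 lay above UWKOS1, and differed by 1.03 (limma adjusted p = 0.111). PRIM2 differed by 1.26 (limma adjusted p = 0.0826), with UWKOS7 far above the other tumorigenic lines.

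The clamp loader subunits RFC2, RFC4 and RFC5 rose, while RFC3, the large subunit RFC1 and the clamp itself did not pass. RFC5 had 10.09, 10.17 and 10.73 in the tumorigenic lines and 8.96, 8.65 and 9.17 in the non-tumorigenic lines and rose by 1.40 (SE 0.24, limma adjusted p = 0.0230). RFC4 had 11.54, 11.56 and 11.66 in the tumorigenic lines and 10.39, 9.73 and 10.70 in the non-tumorigenic lines; the tumorigenic values were nearly equal, and RFC4 rose by 1.31 (SE 0.26, limma adjusted p = 0.0311). RFC2 rose by 1.08 (SE 0.20, limma adjusted p = 0.0268). RFC3 had 10.79, 10.63 and 11.31 in the tumorigenic lines and 9.57, 8.93 and 10.30 in the non-tumorigenic lines. The difference of 1.31 on its brightest probe set missed the threshold (limma adjusted p = 0.0696), while its other 2 probe sets rose by 1.48 and 1.77. RFC1, the large subunit, had 10.10, 9.60 and 9.75 in the tumorigenic lines and 9.05, 9.18 and 9.42 in the non-tumorigenic lines, which did not overlap. Its difference of 0.60 did not pass (limma adjusted p = 0.0911), and 1 of its 4 tested probe sets rose. PCNA, the clamp and a common marker of dividing cells, had 13.39, 13.36 and 13.42 in the tumorigenic lines and 12.92, 12.05 and 12.78 in the non-tumorigenic lines. Its groups stood apart on this probe set, the brightest, but the difference of 0.80 (95% interval 0.20 to 1.41) did not pass (limma adjusted p = 0.0845). On the other PCNA probe set the groups overlapped, and the difference was 0.35 (limma adjusted p = 0.487). The median difference over the 6 genes of clamp and loader was 1.19.

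**Figure D3:**
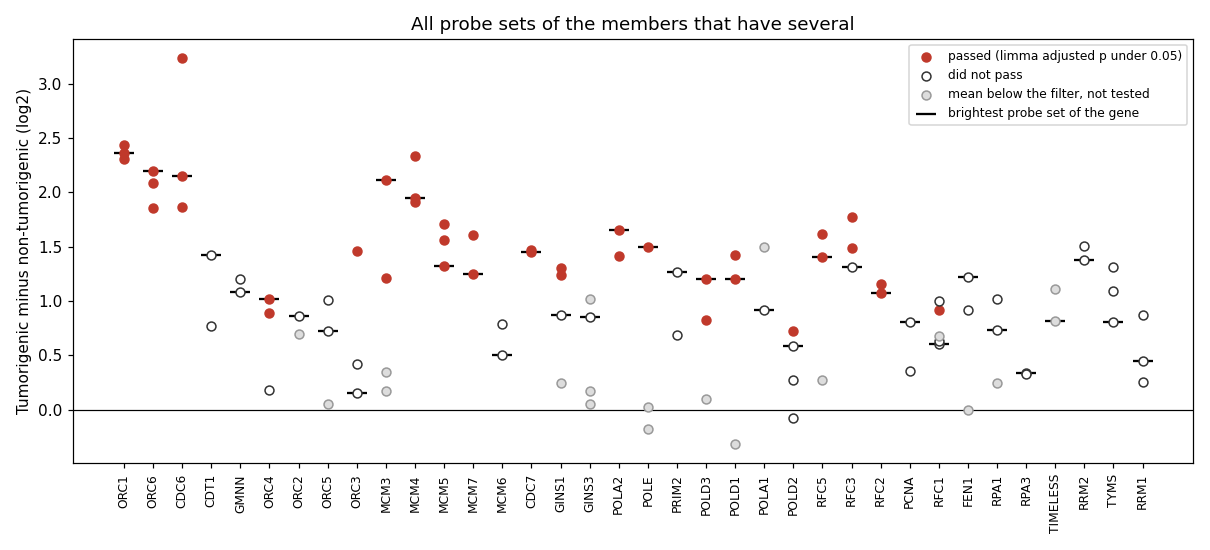
Difference between the groups (tumorigenic minus non-tumorigenic, log2) for every probe set of the members that have more than 1; red points passed, open points did not, grey points lay below the dim-probe filter, and a bar marks the brightest probe set. Of 95 tested probe sets of members 50 rose and 0 fell, against 7.28% and 4.74% of all probe sets tested. Some of the 50, among them dimmer probe sets of CDC6, CDC7, MCM3 and MCM4, had every non-tumorigenic value under the filter value. They reached the filter only through the tumorigenic lines. ORC3, ORC4, GINS1, POLD2, RFC1 and RFC3 have tested probe sets on both sides of the threshold, while the probe sets of ORC1, ORC6, CDC6, MCM4, MCM5 and POLA2 all passed.

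None of the 4 measured genes of the lagging strand and of single-strand binding passed, with a median difference of 0.98. FEN1, the nuclease that trims flaps from Okazaki fragments, differed by 1.22, and the single-strand binding subunits RPA1 and RPA2 by 0.73 and 1.34. They did not pass (limma adjusted p = 0.0618, 0.0583 and 0.0521), and in all 3 the groups did not overlap. RPA3, the smallest subunit, had 12.12, 11.81 and 11.09 in the tumorigenic lines and 11.31, 11.08 and 11.63 in the non-tumorigenic lines. UWKOS7 lay among the non-tumorigenic lines, and the difference of 0.34 had a 95% interval of -0.39 to 1.07 (limma adjusted p = 0.484).

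WDHD1, which ties polymerase alpha to the helicase at the fork, gave the second smallest p of all members. It had 9.68, 9.45 and 9.04 in the tumorigenic lines and 7.07, 7.05 and 7.73 in the non-tumorigenic lines, a gap of more than 1 log2 unit between the groups. WDHD1 rose by 2.11 (SE 0.26, limma adjusted p = 0.0152). TIMELESS, a component of the fork protection complex, was dim, with 6.26, 5.51 and 6.03 in the tumorigenic lines and 5.01, 4.91 and 5.43 in the non-tumorigenic lines. In the fit without the filter, where 4.13% of 15115 genes rose and 2.49% fell, its difference of 0.82 did not pass (limma adjusted p = 0.104).

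CDCA7, a zinc finger protein that recruits the chromatin remodeller HELLS, gave the smallest p of the members. It had 7.27, 7.17 and 6.92 in the tumorigenic lines and 5.38, 5.54 and 5.10 in the non-tumorigenic lines and rose by 1.78 (SE 0.19, limma adjusted p = 0.0131). Unlike most members it was lowest in UWKOS8. Its non-tumorigenic values lay under the filter value of 6.07 and are not known to be above background.

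Of the 4 measured genes of deoxynucleotide supply, 0 rose by limma (1 had an unadjusted p under 0.05). On the brightest probe sets only RRM2 was higher in each tumorigenic line than in each other line. The other RRM2 probe set overlapped between the groups, with 10.70 in UWKOS7 and 10.89 in UWKOS8. The dimmest RRM1 probe set did not overlap and differed by 0.87 without passing (limma adjusted p = 0.158). RRM2, the regulated subunit of ribonucleotide reductase, had 12.31, 12.35 and 12.0 in the tumorigenic lines and 10.64, 10.23 and 11.64 in the non-tumorigenic lines and differed by 1.38 (limma adjusted p = 0.0585). Thymidylate synthase, TYMS, had 11.44, 11.69 and 11.62 in the tumorigenic lines and 10.45, 10.12 and 11.77 in the non-tumorigenic lines. On this probe set, the brightest, UWKOS8 had the highest value of all lines, while UWKOS2 and UWKOS6 were well below every tumorigenic line. The difference of 0.80 did not pass (limma adjusted p = 0.247). On both other TYMS probe sets UWKOS8 lay below every tumorigenic line. They differed by 1.09 and 1.32 without passing (limma adjusted p = 0.103 and 0.0688). TK1, the thymidine salvage kinase, had 10.69, 10.06 and 9.79 in the tumorigenic lines and 10.03, 8.10 and 10.03 in the non-tumorigenic lines. UWKOS2 and UWKOS8 lay within the tumorigenic range and UWKOS6 far below it, so that the difference of 0.79 had the wide 95% interval of -0.57 to 2.16 (limma adjusted p = 0.379). RRM1, the large reductase subunit, differed by 0.45 (95% interval -0.16 to 1.05, limma adjusted p = 0.274). The median difference over these 4 genes was 0.80. It moved with single lines, to 0.39 without UWKOS6 and 1.21 without UWKOS8, and no test compared the role groups.

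The spread between the non-tumorigenic lines followed a common order. UWKOS6 was the lowest of the 6 lines in 37 of the 49 tested members (75.5%, against 19.3% of all genes tested), UWKOS2 in 10 and UWKOS8 in 2. Of all 9145 genes tested 1052 were lowest in UWKOS2 and 1426 in UWKOS8. No member was lowest in a tumorigenic line, while 2098 of all genes tested were lowest in UWKOS1, 1553 in UWKOS3 and 1254 in UWKOS7. UWKOS8 exceeded both UWKOS2 and UWKOS6 in 40 of the 49 (81.6%, against 32% of all genes tested). The mean of the tumorigenic lines exceeded UWKOS8 by a median of 0.79 and the mean of UWKOS2 and UWKOS6 by 1.38. For nucleotide supply these medians were 0.17 and 1.21, and for the MCM2-7 ring 0.98 and 1.96. Without UWKOS8 the groups stood apart in 46 of the 49 members, all but ORC3, RPA3 and TK1, against 25.1% of all genes tested; without UWKOS6 they did in 40 (23.8%). The tumorigenic lines shared the top rank: the highest value lay in UWKOS3 for 20 members, in UWKOS1 for 14 and in UWKOS7 for 14. Over all 9145 genes tested these counts were 1885, 1929 and 1522. The highest value lay in UWKOS8 for TYMS alone, and there only on the brightest probe set, against 1222 of all genes tested.

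**Figure D4:**
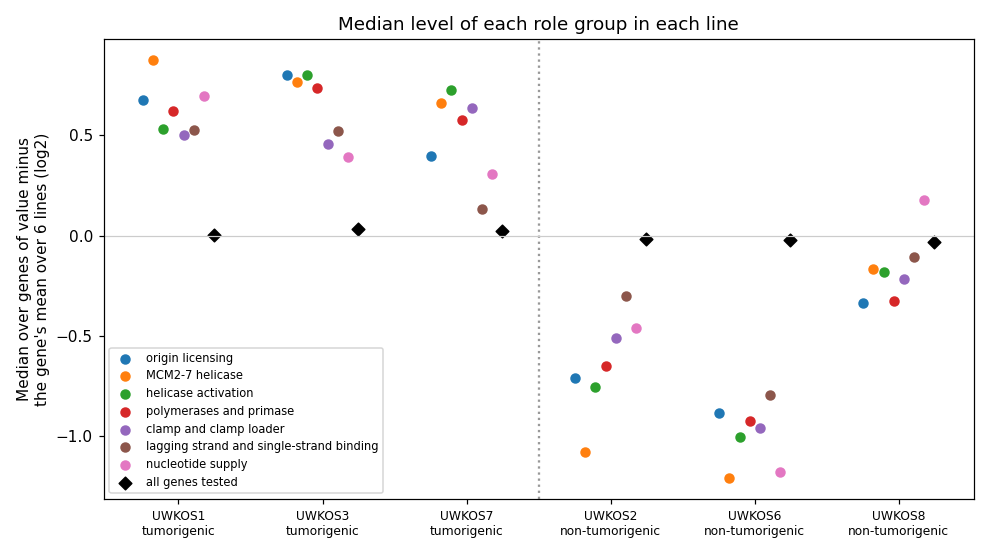
Median over the tested genes of a role group of the value minus the gene's own mean over the 6 lines (vertical axis, log2), for each line; tumorigenic lines stand left of the dotted line and non-tumorigenic lines right of it, and black diamonds show all genes tested, near 0 in every line. The 7 role groups drawn, those with at least 3 tested genes, lie above 0 in the tumorigenic lines, are lowest in UWKOS6, and lie in UWKOS8 between -0.34 for origin licensing and, for nucleotide supply, 0.18.

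The calls rested on single lines more than the direction did. With each line left out in turn, all 49 members stayed higher on average in the tumorigenic lines, and the number that rose changed with the line. It was 12 without UWKOS1, where 3.75% of all genes tested rose, 6 without UWKOS3 (2.06%) and 24 without UWKOS7 (9.0%). It was 7 without UWKOS2 (3.18%), 0 without UWKOS6 (0.0547%) and 22 without UWKOS8 (2.55%). Without UWKOS6 limma called 5 genes higher and 7 lower in all, and the members' median difference was 1.04. In that fit 35 members had an unadjusted p under 0.05, as did 1992 of the 9145 genes tested. MCM3, GINS2, POLD1, POLE2, WDHD1 and CDCA7 passed with any line but UWKOS6 left out. CDCA7 reached the filter on dim probe sets only through the tumorigenic lines. The ratio of the 3′ to the 5′ end of control transcripts is a sign of RNA quality, and for ACTB and GAPDH it was higher in UWKOS6 and UWKOS8 than in any tumorigenic line. The log2 difference between the 3′ and 5′ probe sets of ACTB was 0.64, 0.81 and 1.11 in the tumorigenic lines and 0.82, 2.86 and 2.07 in the non-tumorigenic lines (two-sided exact permutation p = 0.2; 0.1 is the smallest p possible), and that of GAPDH was 0.86, 0.88 and 1.07 in the tumorigenic lines and 0.95, 1.21 and 1.98 in the non-tumorigenic lines (two-sided exact permutation p = 0.2). The EEF1A pair did not order the lines this way: its 5′ probe set read 5.65, 5.97 and 6.38 in the tumorigenic lines and 5.11, 5.52 and 5.92 in the non-tumorigenic lines, all far below its 3′ probe set at 13.94 to 14.28. Averaged over the pairs with EEF1A, the difference was 2.63, 2.57 and 2.67 in the tumorigenic lines and 2.87, 3.38 and 3.24 in the non-tumorigenic lines, without overlap (two-sided exact permutation p = 0.1). With that average as a covariate 0 members passed by limma, and 13 had an unadjusted p under 0.05, against 616 of the 9145 genes tested. With the GAPDH value as a covariate 0 members passed by limma, among 10 genes called in all (0.0437% of those tested higher). The members' median difference was 1.44, and 42 had an unadjusted p under 0.05, against 1901 of the 9145 genes tested. The part of RNA quality in the individual calls was not tested beyond these fits.

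Genes that work with the replication machinery, taken from lists of related function, were described in the same fit. Over all genes tested 7.5% rose and 4.63% fell, with a median difference of 0.03. Among 25 tested replisome and checkpoint factors outside the 52 members 8 rose and 0 fell, with a median of 0.80. RECQL4, a helicase that helps origins to fire, rose by 1.40 (SE 0.15, limma adjusted p = 0.0132), the checkpoint kinase CHEK1 by 1.88 (SE 0.24, limma adjusted p = 0.0153) and deoxycytidine kinase, DCK, by 2.29 (SE 0.31, limma adjusted p = 0.0161). Of 10 tested genes that rebuild chromatin behind the fork 7 rose, among them the histone chaperone NASP by 1.82, SSRP1 of the FACT complex by 1.38 and UHRF1, which guides maintenance methylation, by 1.34 (limma adjusted p = 0.0144, 0.0162 and 0.0195). HELLS, the partner of CDCA7, rose by 1.91 (limma adjusted p = 0.0332); HELLS was picked outside the rule for named genes, with its value in view. Of 15 tested mitotic genes 7 rose, with a median of 1.34, and 0 fell; these genes act after S phase. BIRC5, which guards chromosome segregation, rose by 1.45, the spindle kinase AURKA by 2.16 and CDC20, an activator of the anaphase-promoting complex, by 1.72 (limma adjusted p = 0.0160, 0.0214 and 0.0248).

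The regulators of S phase entry were mixed. Their counts stand beside the same shares over all genes tested, 7.5% higher and 4.63% lower. Of 11 tested genes of the E2F and RB axis 4 rose: E2F4, a mainly repressive E2F, rose by 1.32, the pocket protein RBL1 by 1.02, E2F8, an atypical repressor E2F, by 1.85 and MYBL2, a Myb factor of late cell cycle genes, by 1.76 (limma adjusted p = 0.0187, 0.0214, 0.0248 and 0.0305). The non-tumorigenic values of RBL1, 5.96, 5.52 and 5.73, lay under the filter value and are not known to be above background. None fell: limma called 0 lower, with 7 of the 11 at an unadjusted p under 0.05 in either direction. E2F1, an activator of replication genes, had 8.10, 7.60 and 8.65 in the tumorigenic lines and 7.83, 6.76 and 7.59 in the non-tumorigenic lines, which overlapped, and its difference of 0.72 did not pass (limma adjusted p = 0.238). RBL2, the pocket protein of resting cells, had 7.34, 7.79 and 8.97 in the tumorigenic lines and 10.05, 9.85 and 9.36 in the non-tumorigenic lines; its difference of -1.72 did not pass (limma adjusted p = 0.0526), though each tumorigenic line lay below each other line. MYBL2, E2F1 and RBL2 were likewise picked with their values in view. Of 11 tested cyclins and kinases of the G1/S transition 3 rose: cyclin E1 (CCNE1) rose by 1.75, the phosphatase CDC25A by 1.63 and CDK4 by 0.95 (limma adjusted p = 0.0188, 0.0196 and 0.0271). CDC25A likewise lay under the filter value in the non-tumorigenic lines, at 5.74, 4.91 and 5.54. None of the 4 tested CDK inhibitors passed by limma, and 0 had an unadjusted p under 0.05. CDKN1A, the p53-induced inhibitor, had 12.36, 8.28 and 8.77 in the tumorigenic lines and 9.06, 13.29 and 13.12 in the non-tumorigenic lines. UWKOS1, UWKOS6 and UWKOS8 were high for CDKN1A and the others low, so the groups overlapped and the difference of -2.02 did not pass (limma adjusted p = 0.397). CDKN2C, which binds CDK4 and CDK6, and CDKN1B, a brake on cyclin E kinase, differed by 0.52 and -0.32 (limma adjusted p = 0.360 and 0.642).

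**Figure D5:**
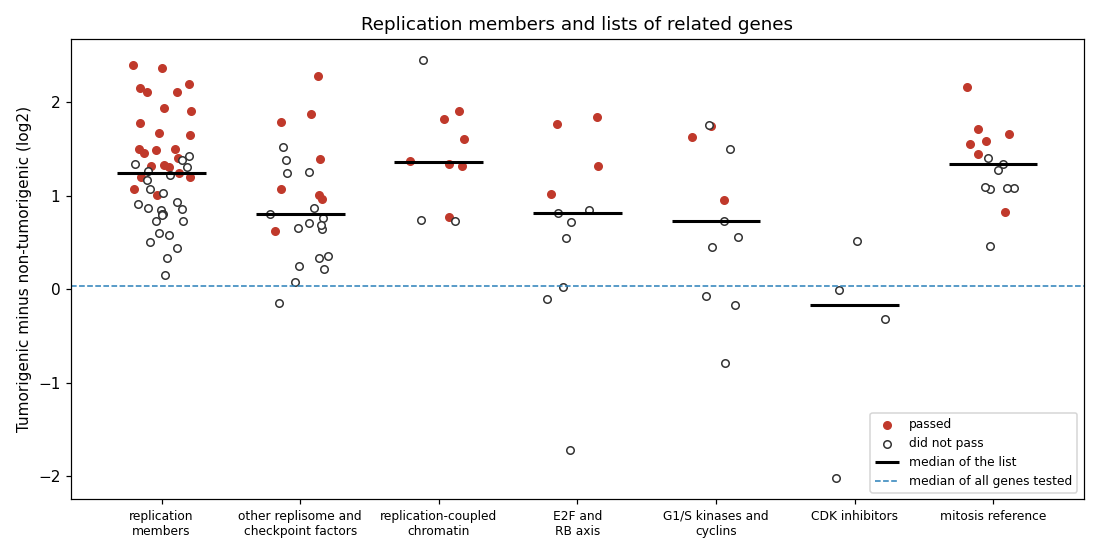
Difference between the groups (tumorigenic minus non-tumorigenic, log2) for the 49 tested members and for the tested genes of each related list, 1 point per gene; red points passed, open points did not, black bars are list medians and the dashed line is the median of all genes tested. The medians of the members, of replication-coupled chromatin and of mitosis lie between 1.25 and 1.36, and that of the CDK inhibitors at -0.16.

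Markers of other cell types were checked in the same table. Of the osteoblast list, COL1A1, COL1A2 and SPARC were bright in all lines, RUNX2 lay near the filter value (5.84 to 6.52 in the tumorigenic lines and 5.89 to 6.17 in the non-tumorigenic lines), ALPL and IBSP lay below it, SPP1 was high in UWKOS1 only, and SP7 had no probe set named here. The defining leukocyte marker PTPRC lay at 4.86 to 5.17 in the tumorigenic lines and 4.99 to 5.07 in the non-tumorigenic lines, below the filter. Of the marker lists for fibroblasts (5 tested), smooth muscle (4), endothelium (2), leukocytes (2), lymphocytes (1), epithelium (0) and red cells (0), 0 genes passed by limma (4 had an unadjusted p under 0.05: KDR, CD68, FAP and TAGLN, picked with their values in view). Below the filter, also picked with their values in view, the endothelial marker PECAM1 had 4.67, 4.88 and 5.16 in the tumorigenic lines and 4.21, 3.97 and 4.02 in the non-tumorigenic lines and was called higher in the fit without the filter (limma adjusted p = 0.0412). The epithelial keratin KRT8 had 6.49, 6.64 and 3.04 in the tumorigenic lines and 2.69, 2.92 and 2.93 in the non-tumorigenic lines, and EPCAM reached 7.65 in UWKOS1 alone. Neither passed (limma adjusted p = 0.168 and 0.424). The log2 of the summed linear values of the 6 measured fibroblast markers was 14.05 to 14.13 in the tumorigenic lines and 14.90 to 15.43 in the non-tumorigenic lines. For the 8 measured osteoblast markers, of which 5 were tested and 0 passed by limma (2 had an unadjusted p under 0.05, COL1A2 and SPARC), the sum was 14.37 to 15.19 in the tumorigenic lines and 15.39 to 15.61 in the non-tumorigenic lines. For the 5 measured smooth muscle markers it was 9.91 to 14.50 in the tumorigenic lines and 15.34 to 15.40 in the non-tumorigenic lines. These 3 sums were lower in every tumorigenic line, but a sum of linear values mostly reflects its brightest genes. In the same lists PDGFRA, DES, RUNX2, IBSP and SPP1 had higher means in the tumorigenic lines, by 0.78, 0.40, 0.22, 0.43 and 2.26. The other measured members of these lists had lower means, although CNN1 was highest in UWKOS7, at 11.94. For the 5 measured endothelial markers the sum was 8.73 to 9.21 in the tumorigenic lines and 8.51 to 8.55 in the non-tumorigenic lines. For the 4 measured epithelial markers it was 6.29 to 8.91 in the tumorigenic lines and 6.16 to 6.52 in the non-tumorigenic lines. The part of these markers in the replication result was not tested.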

How the data were processed

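Total RNA from 6 cultured lines was read on Affymetrix canine arrays. Per the submitters' processing notes the tool was MAS5; its version and a build are not given in the sources used here. The deposited log2 values were used without further scaling. No label states their base: it was taken as 2 because base 2 puts the maximum of 14.83 within a scanner's range. Their near-equal quantiles are unusual for MAS5, so the summary method is not settled.

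Of 43035 rows 111 were controls. Of the rest 29254 carried 1 gene symbol, 439 carried several and 13231 were unnamed here. For 27680 probe sets the symbol was replaced by the current one of RefSeq (assembly UU_Cfam_GSD_1.0) for the same gene identifier; the other 1574 symbols come from the annotation as it stands, which can be old. Kept for testing were probe sets whose mean reached 6.07, the median over non-control probe sets. Each gene was represented by its brightest single-symbol probe set. Groups were compared with limma 3.58.1 (lmFit, eBayes, no covariate) in R 4.3.3 and Benjamini-Hochberg adjustment over 9145 genes, or over 21462 probe sets for the probe set comparison, at a threshold of 0.05. Role groups were described by counts and medians without a test. Replicate numbers follow accession order and pair nothing. The number of arrays limits the precision.

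The members, lists and tests were chosen with earlier results of these data known. Named in full were, per role group, up to 4 passing members of smallest p and the member of largest p, every member whose probe sets disagree, and up to 3 genes of each related list by smallest p. The transcript-end controls were tested by exact permutation, two-sided. Alternatives were other filters, scalings, limma options, probe set means, transcript-end covariates and leaving out lines. Simulated data with known changes served to test the fit. Promoter motifs and sequences were not analysed here. Figures were drawn with matplotlib.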

Additional observations from a re-analysis of the deposited data

How the results depend on the processing

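Under each alternative the fitted difference of every member tested in it stayed positive, except that of TK1 in 1 setting. With the EEF1A control pair added to the mean transcript-end covariate, the TK1 difference adjusted for that covariate was -0.79 (limma adjusted p = 0.95). That alternative was chosen after seeing the data, and the cause was not tested. Calls were less stable. Against 24 members that rose, 22 to 27 did so with other filters, scalings on the arrays' own quantiles, limma options with eBayes or probe set means, and 35 when arrays were centred on the hybridization controls, which moved the median of all genes to 0.20 and the genes called higher to 1146, against 686. With a covariate for transcript ends, from GAPDH, the mean of 3 pairs or that mean with EEF1A, or without eBayes moderation, 0 members passed. Unadjusted p was under 0.05 for 42, 30, 13 and 37 members, against 1901, 1385, 616 and 2531 of the 9145 genes tested. In the same order of settings 4, 2, 0 and 32 genes of all tested were higher and 6, 1, 0 and 12 lower (main 423). Of the members' probe sets 1, 0, 0 and 1 were higher (main 50). Of the related genes, 29 of which rose and 0 fell in the main comparison, 0, 0, 0 and 1 rose. With UWKOS6 and UWKOS8 both left out, only UWKOS2 remained in its group, so only the size of the difference is given. The members' median difference was then 1.25, against 0.03 over all genes tested. CDKN2B was the 1 related gene called lower with no filter; RBL2 was the 1 called lower with the upper-quartile filter, quantile normalization, 75th percentile centring and array weights. The GAPDH covariate moved the medians of origin licensing and MCM2-7 to 1.34 and 2.06, and the EEF1A covariate those of clamp and loader and of the lagging strand to 0.87 and 0.59. Nucleotide supply had the lowest median of the role groups with at least 3 tested genes in the main comparison, but not without UWKOS8, where it was 1.21 against 1.10 for the lagging strand, nor with the GAPDH covariate (1.21 against 1.09) or the EEF1A covariate (0.61 against 0.59). Leaving out 1 line at a time gave 0 to 24 members higher, 5 to 823 genes higher, 7 to 490 genes lower, 0 to 25 related genes higher, 0 to 1 lower, 1 to 47 member probe sets higher, and a median of 0.96 to 1.34 for origin licensing. The causes of these changes were not tested, beyond the fewer samples or the extra term in the fits concerned. Over single members and alternatives 740 calls were the same, 203 were lost, 27 gained and 1 turned. No paired analysis was possible because the labels give no replicate numbers and the numbers used follow accession order.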

Other observations

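Some related genes lay below the dim-probe filter and were seen only in the fit without it, where 4.13% of 15115 genes rose and 2.49% fell; they were picked with their values in view. CLSPN, the adaptor that passes the replication checkpoint signal to CHEK1, had 5.22, 5.08 and 4.77 in the tumorigenic lines and 3.93, 3.81 and 4.0 in the non-tumorigenic lines and rose by 1.11 (limma adjusted p = 0.0219). SKP2, which marks CDK inhibitors for destruction, had 7.14, 6.94 and 5.93 in the tumorigenic lines and 4.99, 4.35 and 4.91 in the non-tumorigenic lines and rose by 1.92 (limma adjusted p = 0.0370). CDKN2B, an inhibitor of CDK4 and CDK6, had 3.99, 4.16 and 4.25 in the tumorigenic lines and 5.20, 4.96 and 4.87 in the non-tumorigenic lines and fell by 0.88 (limma adjusted p = 0.0288). RB1, the retinoblastoma gene, had 4.59, 5.23 and 5.52 in the tumorigenic lines and 7.24, 6.11 and 6.44 in the non-tumorigenic lines, without overlap, and its difference of -1.48 did not pass (limma adjusted p = 0.0690). These low values may lie at background, so the sizes of the differences are uncertain.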
